A study of Hordeum vulgare with 10 samples.

Results

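After 1 h at 35.5 °C, 51 barley genes stood at a root level of 0.33 times the control or less, while in shoots neither the ratio of heat to control nor its inverse fell under 0.8. They were chosen from 24211 genes with an MLOC_ identifier that are listed in both the root and the shoot table. The members were chosen by the group means of normalized counts (reads over a library-wide size factor, averaged within a group): the root ratio of heat to control, with 1 added to each mean, had to be at most 0.33 with a control root mean of at least 50, and the shoot ratio and its inverse both had to be at least 0.8 with a mean over all shoot libraries of at least 50. The 10 Pi-related genes that the study listed with an identifier were left out. All heat against control values below therefore describe what the members were selected on, and no test is attached to them.

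The plants were barley of the cultivar Rolap, grown in a mix of soil and sand and 2 weeks old at harvest. Heated plants had spent 1 h at 35.5 °C, and control plants stayed at 22 °C. Poly(A) RNA of 2 heated root, 2 control root, 3 heated shoot and 3 control shoot samples was sequenced with strand-specific libraries, and the study calls the samples of a group biological replicates. Roots and shoots were taken whole, so that fewer cells of a type and less RNA per cell cannot be told apart in any value below. The study's purpose was to follow genes of phosphate homeostasis under heat, and the 51 genes are not part of that list.

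Plants answer a sudden rise in temperature with heat shock factors, which switch on genes of chaperones such as Hsp90 within minutes, while the transcripts of many other genes decline through less transcription or faster decay. Roots and shoots carry different sets of transcripts. The temperature that the soil around the roots reached during the heat treatment is not given in the sources. The files, the study's text and the reference table at hand gave a name or function to 0 of the 51 members, so each is called by its identifier, no function can be stated, and no sequence is shown.

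The deposited tables hold group means only, from which the reads of single libraries were worked out. Heated root libraries held 16641990 and 16021844 reads in genes, against 16828645 and 16140995 reads in control root libraries. Heated shoot libraries held 8699904 to 9161467 reads in genes whose reads could be recovered, against 9212026 to 10066524 in control shoot libraries. These sums lack the genes with means too large for recovery, 71 in heated and 62 in control shoots. They therefore understate the gene reads of the shoot libraries and are not comparable with the root sums. Values per library are listed from the largest to the smallest size factor of a group (0.854 and 0.837 in heated roots, 1.22 and 1.16 in control roots, 0.975, 0.927 and 0.871 in heated shoots, 1.18, 1.10 and 1.02 in control shoots). Hsp90.1 (MLOC_5618), a chaperone induced by heat, had a mean of 196171 in heated roots against 163 in control roots and 30076 in heated shoots against 51.0 in control shoots, in the direction of the labels. MLOC_28370, listed as the Pi uptake transporter PHT1;1 of the root, had 77 and 90 reads in heated roots and 982 and 989 in control roots. It had 0 reads in each of the 6 shoot libraries (a count of 0 allows up to 3 reads per library, counting error only). Per the study, paralogs share this sequence, so its reads stand for these transporters together. PHT1;4 (MLOC_6187) had means of 1407 in heated and 2450 in control roots, and of 1.06 in heated and 2.13 in control shoots.

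Most genes lowered this far in heated roots had a low shoot level, so that their shoot ratio was not assessed. The root part of the choice alone gave 599 genes. Of these, 386 (64.4%) had a shoot mean under 50, 148 (24.7%) had a shoot ratio under 0.8, 14 (2.34%) had one whose inverse was under 0.8, and the 51 members (8.51%) lay between. Among the 213 genes with a shoot mean of at least 50, the members were 23.9%. The same shares were not computed over all genes with a control root mean of at least 50. They are therefore not read as traits of genes lowered in heated roots. Seen from the shoots, 5972 of the 10819 genes past both limits on the mean met the shoot part of the rule. The 51 members were 0.854% of those 5972. In the same 5972 genes, 47 were raised in heated roots as far (the inverse of the ratio was at most 0.33), and the median root log2 ratio was 0.07. Of the 10 listed Pi-related genes, 1 met every value of the rule: SPX-MFS (MLOC_57566), which joins an SPX domain to a transporter domain, had a mean of 17.7 in heated roots against 71.9 in control roots, and of 395 in heated shoots against 343 in control shoots.

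The root ratio of the members ran from 0.106 to 0.329 with a median of 0.274, that is, a level 3.65-fold lower in heated roots. It was under 0.2 in 12 members, from 0.2 to 0.25 in 7, from 0.25 to 0.30 in 16 and from 0.30 to 0.33 in 16. In every one of the 51 members, both heated root libraries lay below both control root libraries. Over all 18452 genes tested in roots this held for 37.1%, and since the rule used the root contrast nothing is read from the difference. The log2 fold change of the edgeR fit, heated over control roots, had a median of -1.89 over the members and of -0.0036 over all genes tested, and standard errors of the members ran from 0.11 to 0.46.

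The 6 smallest root ratios belonged to MLOC_19025, MLOC_75336, MLOC_63464, MLOC_63465, MLOC_61170 and MLOC_11893. MLOC_19025 had 116 and 103 normalized counts in heated roots, against 1034 and 1051 in control roots (log2 fold change -3.26 ± 0.13, SE). MLOC_75336 had 19.9 and 14.3 in heated roots, against 149 and 191 in control roots (-3.30 ± 0.28). Both were more than 9 times lower after heat, at a control level that differed several-fold between them. MLOC_61170 had 369 and 394 in heated roots, against 2871 and 3188 in control roots (-2.99 ± 0.12). MLOC_11893 was among the weakest members, with 5.86 and 7.17 normalized counts in heated roots, against 58.1 and 56.1 in control roots (-3.11 ± 0.33). Its heated root values rest on 5 and 6 reads, so the size of its ratio is less certain than that of MLOC_61170, with 315 and 330 reads.

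**Figure D1:**
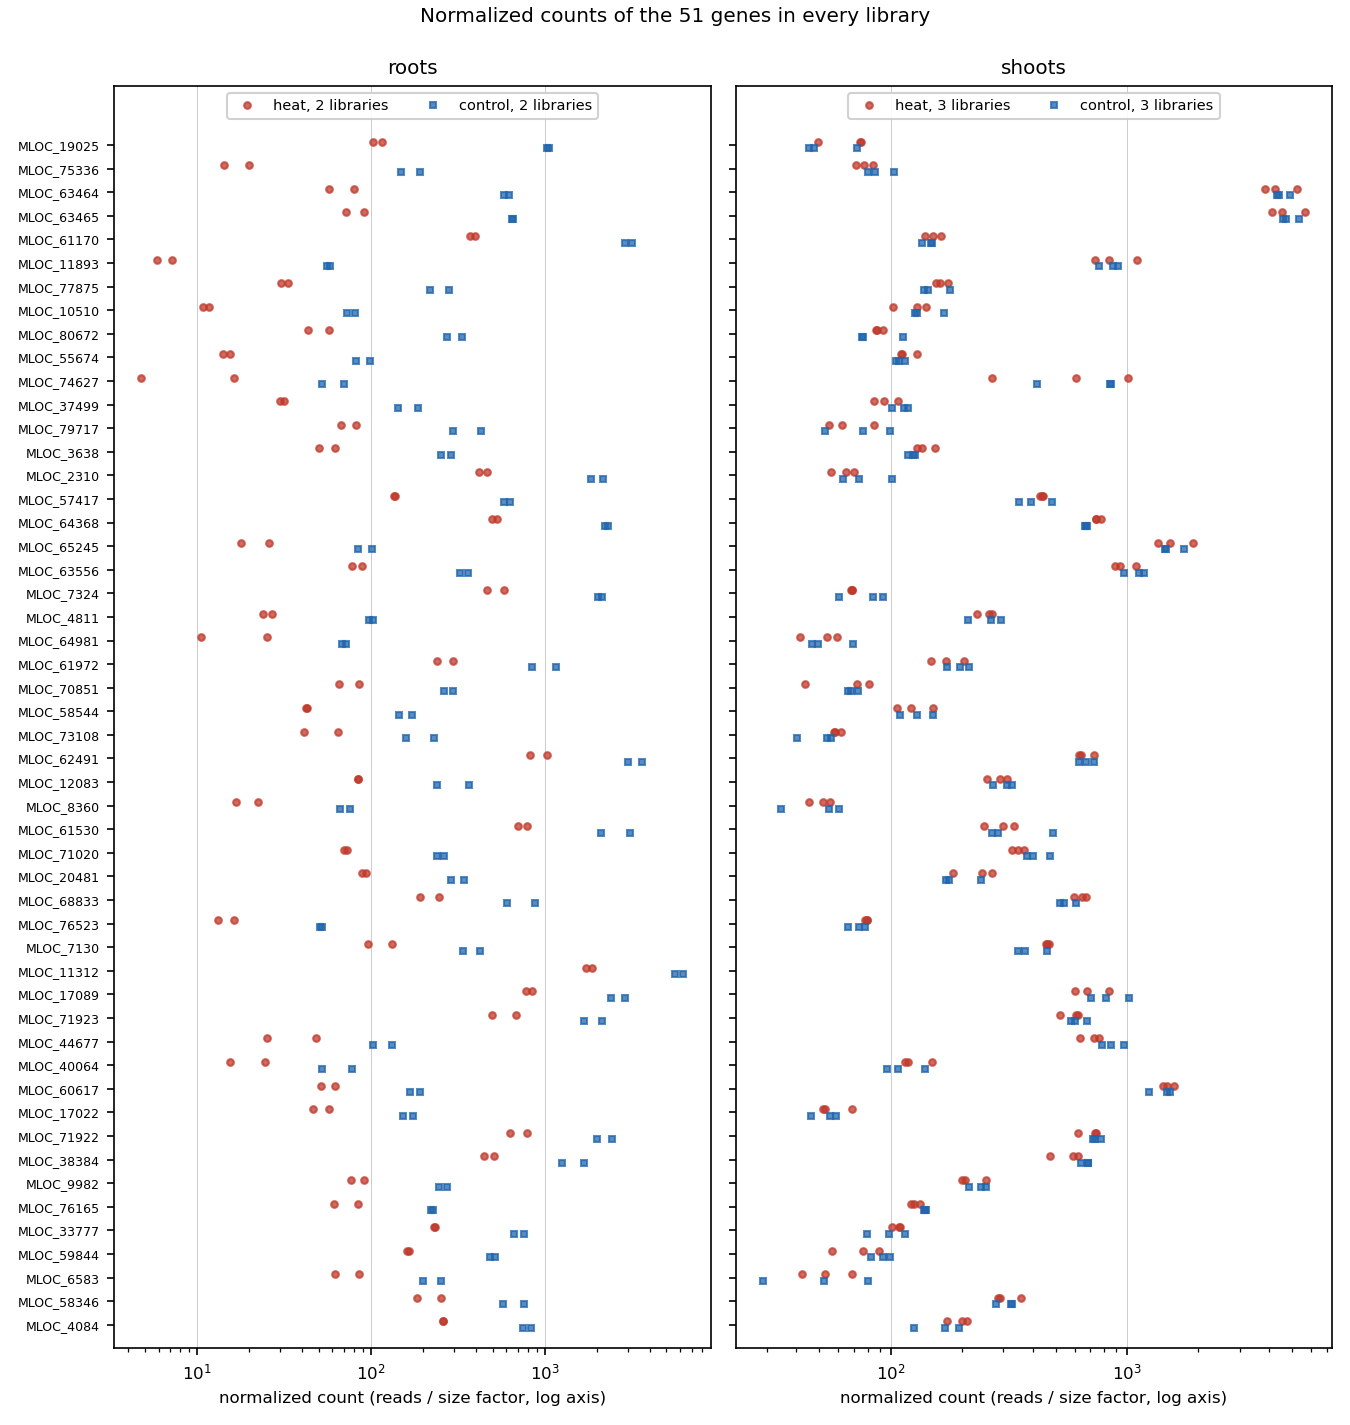
Normalized counts (log axis) of the 51 genes in roots (left) and shoots (right), 1 point per library, heat in red and control in blue, with the genes ordered by root ratio. In roots the red points of all 51 genes lie left of the blue points, and in shoots the colours overlap in 42 of the 50 genes with library values (MLOC_11312 has none in shoots).

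MLOC_63464 and MLOC_63465 carry consecutive identifiers and moved almost as one. MLOC_63464 had 57.4 and 80.1 normalized counts in heated roots, against 619 and 586 in control roots (log2 fold change -3.14 ± 0.19). MLOC_63465 had 71.4 and 90.8 in heated roots, against 648 and 659 in control roots (-3.01 ± 0.16). The reads of MLOC_63465 were 1.05 to 1.24 times those of MLOC_63464 in each of the 10 libraries. The other such pair, MLOC_71922 and MLOC_71923, had a ratio of the second gene to the first from 0.786 to 0.881 over the 10 libraries. Whether the genes of a pair lie side by side as copies or as pieces of a single gene model, and whether reads were shared between them, cannot be read from the files, and each pair may stand for 1 gene.

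The 6 highest control root means covered levels of 2265 normalized counts (MLOC_64368) to 5927 (MLOC_11312), with root ratios spread over the range of the set. MLOC_11312 was the highest, with 1727 and 1868 normalized counts in heated roots, against 5593 and 6261 in control roots (log2 fold change -1.73 ± 0.11). MLOC_62491 followed with 826 and 1022 in heated roots, against 2992 and 3623 in control roots (-1.85 ± 0.15). MLOC_17089 had 782 and 844 in heated roots, against 2405 and 2905 in control roots (-1.71 ± 0.13). In these 3 genes both heated libraries lay far below the lower control library. MLOC_61530 had 698 and 786 in heated roots, against 2113 and 3078 in control roots (-1.81 ± 0.19), with control libraries that lay further apart than the heated ones. MLOC_64368 had 499 and 533 in heated roots, against 2321 and 2210 in control roots (-2.14 ± 0.11), the smallest standard error of the set. MLOC_61170, described above, is the remaining one of the 6.

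Replicate root libraries of the members lay somewhat further apart than those of all genes past both limits on the mean. The higher library was a median 1.23 times the lower in heated roots over the members, against 1.10 times over those 10819 genes, at member levels that the choice made low in heated roots. In control roots they were 1.159 times over the members and 1.114 times over those genes. Heated root libraries differed by more than 1.5 times in 5 members, which are named here after their values were seen: MLOC_74627, MLOC_64981, MLOC_44677, MLOC_40064 and MLOC_73108. MLOC_74627 had 16.4 and 4.78 normalized counts in heated roots, against 52.4 and 69.8 in control roots (log2 fold change -2.51 ± 0.46). The ratio of 3.43 between its heated libraries rests on 14 and 4 reads. MLOC_64981 had 10.5 and 25.1 in heated roots, against 72.0 and 68.1 in control roots. In control roots only MLOC_12083 passed 1.5 times, with 241 and 364.

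Some genes lay just inside and some just outside each limit. At the root limit of 0.33, MLOC_4084 (0.329) and MLOC_58346 (0.329) were members, and MLOC_76936 (0.331) and MLOC_67546 (0.333) were not. At the control root mean of 50, MLOC_76523 (51.6) and MLOC_11893 (57.1) were inside, and MLOC_74915 (49.2) and MLOC_39235 (47.5) outside. The shoot ratio placed MLOC_2310 (0.802) and MLOC_59844 (0.812) just above the lower limit, with MLOC_53998 (0.799) and MLOC_34565 (0.797) just below it. No member came close to the upper shoot limit: MLOC_19025 (1.20) and MLOC_4084 (1.19) were the nearest inside, and MLOC_16007 (1.26) and MLOC_79329 (1.27) the nearest outside. The shoot mean kept MLOC_8360 (50.4) and MLOC_64981 (53.3), and left out MLOC_71951 (45.7) and MLOC_52795 (45.0).

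In shoots the members were spread evenly around no change. The shoot ratio ran from 0.802 to 1.20 with a median of 0.981, and was above 1 in 23 members and below 1 in 28. MLOC_11312 had authors' means of 45479 in heated shoots and 48333 in control shoots. It is left out of the shoot library values that follow, because its shoot means were too large for the reads to be recovered. For the other 50 members the log2 fold change, heated over control shoots, ran from -0.32 to 0.28 with a median of -0.02, and standard errors ran from 0.09 to 0.37. Heated and control shoot libraries did not overlap in 8 of the 50 (16.0%), 4 lower and 4 higher in heat, beside 50.2% of all 16271 genes tested in shoots. The band of shoot ratios was part of the rule, so the low share follows from the choice.

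The 4 shoot ratios nearest to 1 belonged to MLOC_58346, MLOC_80672, MLOC_4811 and MLOC_8360. MLOC_58346 had 290, 286 and 356 normalized counts in heated shoots, against 280, 324 and 326 in control shoots. In the root table the same gene had 184 and 253 in heated roots, against 575 and 757 in control roots (log2 fold change -1.61 ± 0.20). MLOC_80672 had 87.2, 92.7 and 87.2 in heated shoots, against 76.4, 113 and 75.8 in control shoots. Its root values were 43.3 and 57.4 in heated roots, against 275 and 332 in control roots (-2.60 ± 0.21). These genes overlapped in shoots and were separated in roots. MLOC_4811 had 261, 233 and 269 in heated shoots, against 266, 293 and 212 in control shoots. MLOC_8360 had 55.4, 45.3 and 51.7 in heated shoots, against 60.3, 34.6 and 55.2 in control shoots, near the lower limit on the mean.

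A mean near the control is a weaker statement than an unchanged gene. The 95% interval of the shoot log2 fold change lay wholly inside the shoot limits of the rule in 7 of the 50 members, beside 11.4% of the 10782 genes past both limits on the mean with shoot library values: MLOC_63464, MLOC_4811, MLOC_62491, MLOC_71923, MLOC_60617, MLOC_71922 and MLOC_58346. In the other 43 the interval reached past a limit. Since the rule held the shoot mean near the control, these intervals give the precision of single genes and no test. Among the 4 members whose heated shoot libraries all lay below the control ones were MLOC_44677 and MLOC_71020, named here after their values were seen. MLOC_44677 had 727, 633 and 765 normalized counts in heated shoots, against 853, 783 and 967 in control shoots (log2 fold change -0.29 ± 0.11). MLOC_71020 had 326, 367 and 347 in heated shoots, against 376, 401 and 471 in control shoots (-0.26 ± 0.11). The shift in shoots was far smaller in both than that in roots. The 95% interval of the shoot log2 fold change lay wholly below 0 in both. It also did in MLOC_38384 (-0.50 to -0.013), likewise named after its values were seen. In the other 47 of the 50 members it included 0, and the share over all genes was not computed.

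Shoot libraries of a group differed by more than 1.5 times in 7 of the 50 members under heat and in 9 under control conditions. The share of all genes that did so was not computed. In heated shoots the highest library was a median 1.228 times the lowest over the members, against 1.195 times over genes past both limits. In control shoots these medians were 1.246 and 1.181. MLOC_74627 was the most uneven in heated shoots, with 607, 1011 and 269 normalized counts in heated shoots, against 858, 848 and 418 in control shoots. MLOC_6583, the most uneven in control shoots, had 42.1, 69.0 and 52.8 in heated shoots, against 28.9, 80.1 and 52.2 in control shoots. For these genes a shoot mean near the control goes with a spread between libraries that is wider than the limits of the rule. The library of size factor 0.871 held the highest of the 3 heated shoot values in 23 of the 50 members, and the library of size factor 1.02 the highest of the 3 control shoot values in 22. How often these libraries were the highest over all genes was not counted. The part of these libraries in the results was not tested beyond leaving each out in turn.

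**Figure D2:**
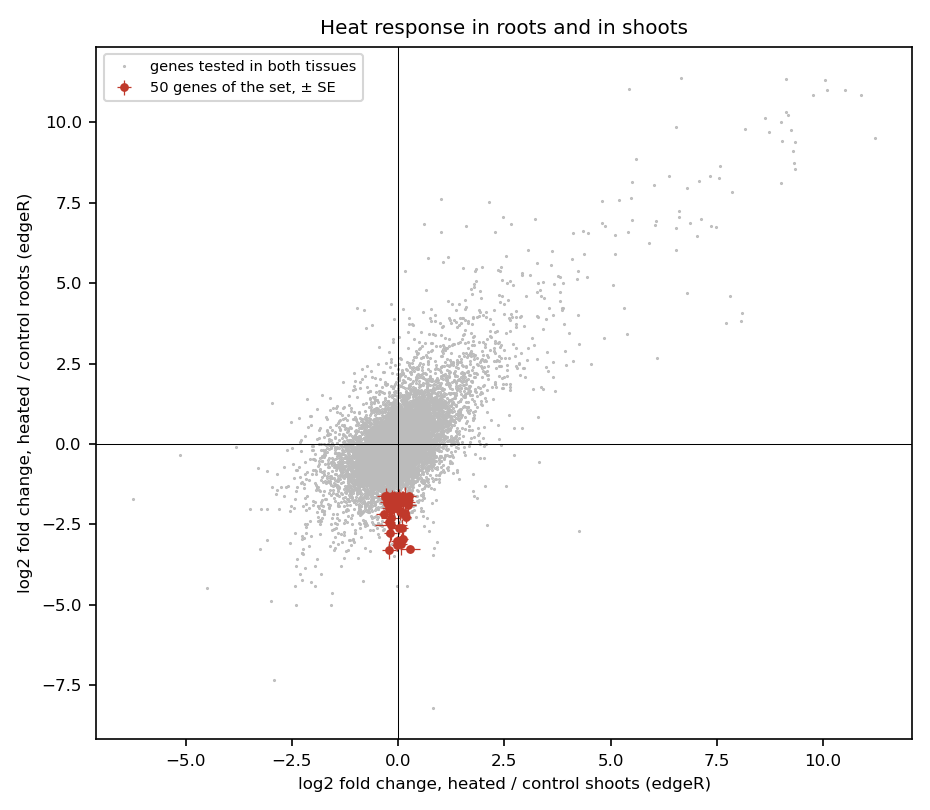
Log2 fold change of heated over control roots (vertical) against heated over control shoots (horizontal) from edgeR, with the genes tested in both tissues in grey and 50 genes of the set in red, bars showing ± SE. The red points form a column below the cloud, from -3.30 to -1.61 in roots and from -0.32 to 0.28 in shoots, as the choice of the genes requires.

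The root change minus the shoot change, from a fit over all 10 libraries, was negative in the 50 members with library values, as the choice of the members fixes. It ran from -3.60 in MLOC_19025 to -1.38 in MLOC_59844 on the log2 scale, with a median of -1.95, against -0.03 over all 19200 genes tested. Among the members, the Spearman correlation of the root log2 ratio was -0.00498 with the shoot log2 ratio (51 genes) and 0.12 with the control root mean (51 genes). These are correlations across genes that share libraries and were chosen within narrow limits, given as a description.

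The ratio of root to shoot level was not part of the rule, and it was tested in the control plants. The test is not independent of the rule, because the control root mean and the shoot means entered it through the limits of 50 and the heat ratios, so the genes past both limits are the closer background. The members were found on both sides. By edgeR's quasi-likelihood test with Benjamini-Hochberg adjustment over 18895 genes, 19 of the 50 (38.0%) were higher in control roots than in control shoots and 26 (52.0%) were lower. Over all genes tested, 38.5% were higher in control roots and 35.1% lower, and over the 10792 tested genes past both limits on the mean, 30.0% were higher and 38.7% lower. Beside the genes past both limits, both shares of members were above the background, and beside all genes tested only the share lower in roots was, with no test of these differences. The median log2 fold change, control roots over control shoots, was -0.57 over the members, 0.09 over all genes tested and -0.08 over the genes past both limits. The split depended on the scaling between the organs. With libraries scaled to their total reads in genes whose reads were recovered, 23 of the 50 members were higher and 17 lower. Beside them, 58.4% of the genes past both limits were higher and 22.8% lower. The share of members higher in roots was then below the background, and the share lower was above it. The most abundant shoot genes are missing from these totals, so the split under full totals was not measured.

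At the root side of this range stood MLOC_7324, MLOC_2310, MLOC_61170 and MLOC_19025, with levels given as TMM-scaled CPM. The reads of a gene are set against the library's sum over genes with reads recovered in every library, times its TMM factor. MLOC_7324 had 112 and 108 CPM in control roots, against 7.58, 11.7 and 10.7 CPM in control shoots (log2 fold change 3.46 ± 0.16, edgeR adjusted p = 1.69e-08). MLOC_2310 had 113 and 98.1 CPM in control roots, against 12.8, 7.89 and 9.32 CPM in control shoots (3.38 ± 0.17, edgeR adjusted p = 4.28e-08). MLOC_61170 had 152 and 169 CPM in control roots, against 17.1, 18.6 and 18.9 CPM in control shoots (3.13 ± 0.12, edgeR adjusted p = 3.44e-09). The groups were far apart in each. MLOC_19025 had 54.6 and 55.7 CPM in control roots, against 5.98, 9.04 and 5.72 CPM in control shoots (2.98 ± 0.17, edgeR adjusted p = 1.02e-07). After these 4 the order dropped to MLOC_61530, with a log2 fold change of 1.65 ± 0.24.

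At the shoot side stood MLOC_65245, MLOC_11893, MLOC_74627 and MLOC_60617. MLOC_65245 had 5.36 and 4.47 CPM in control roots, against 184, 219 and 182 CPM in control shoots (log2 fold change -5.32 ± 0.17, edgeR adjusted p = 1.27e-09). MLOC_11893 had 3.07 and 2.97 CPM in control roots, against 95.9, 110 and 116 CPM in control shoots (-5.15 ± 0.16, edgeR adjusted p = 9.88e-10). MLOC_74627 had 2.77 and 3.70 CPM in control roots, against 108, 107 and 52.7 CPM in control shoots (-4.80 ± 0.35, edgeR adjusted p = 5.99e-07). These are genes of the shoot with a small root level, and this small level stood lower still in heated roots. MLOC_60617 had 8.86 and 10.1 CPM in control roots, against 157, 186 and 191 CPM in control shoots (-4.24 ± 0.15, edgeR adjusted p = 3.02e-09). MLOC_63464, MLOC_63465 and MLOC_44677 lay close by, at -4.17 ± 0.14, -4.16 ± 0.14 and -4.14 ± 0.17, within their errors of MLOC_60617. The sources name no marker of the shoot, so the share of shoot RNA in root samples was not measured.

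**Figure D3:**
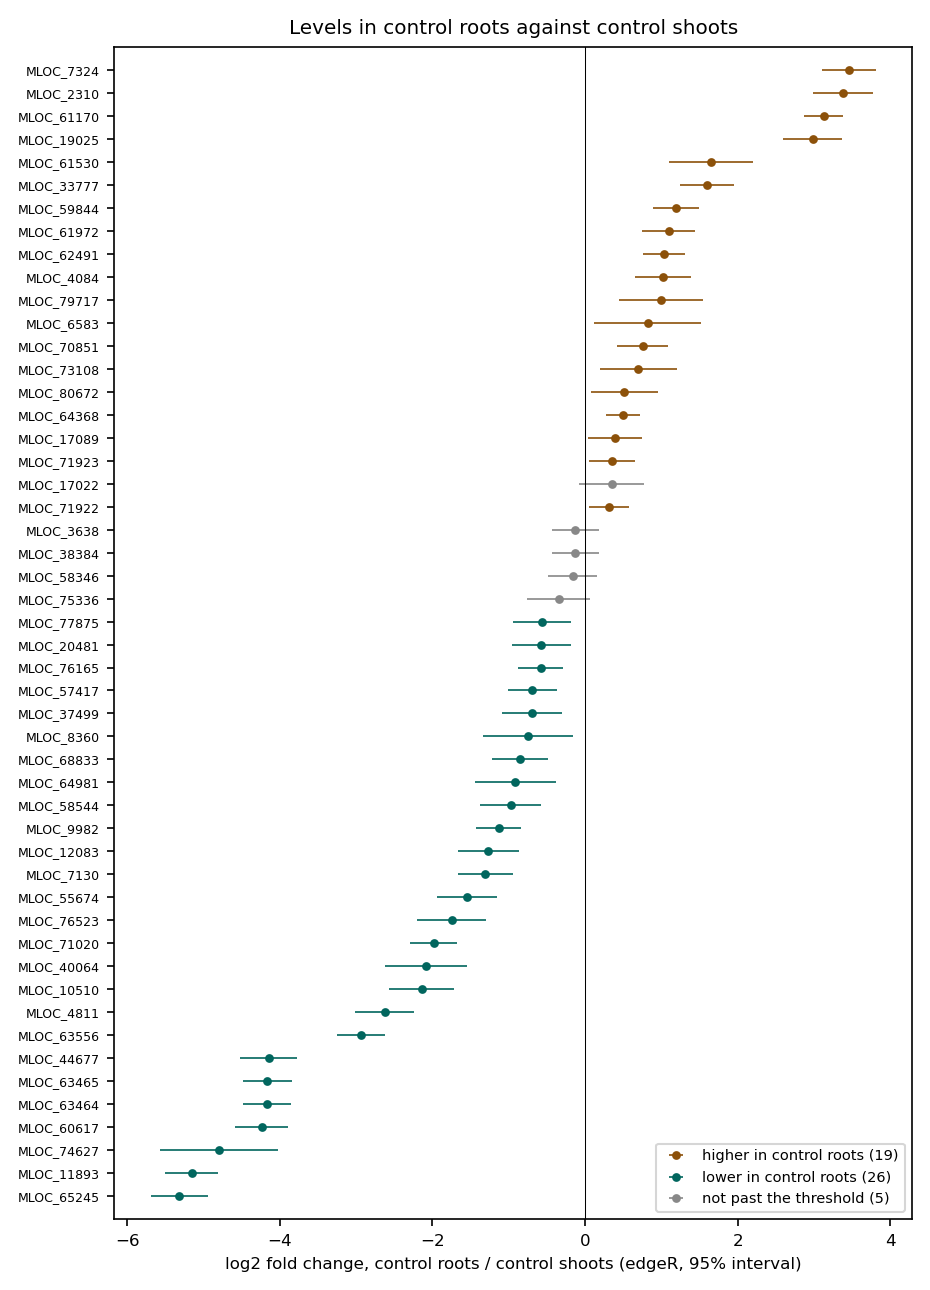
Log2 fold change of control roots over control shoots for 50 genes of the set (edgeR, bars show the 95% interval), ordered by value and coloured by the test at an adjusted p of 0.05. The test placed 19 genes higher and 26 lower in control roots, and 5 did not pass, between 3.46 in MLOC_7324 and -5.32 in MLOC_65245.

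The 5 members that did not pass were MLOC_75336, MLOC_3638, MLOC_17022, MLOC_38384 and MLOC_58346, with edgeR adjusted p from 0.119 to 0.419. MLOC_38384 had 66.2 and 89.3 CPM in control roots, against 80.7, 86.0 and 86.6 CPM in control shoots. MLOC_58346 had 30.4 and 40.1 CPM in control roots, against 35.2, 40.7 and 41.1 CPM in control shoots. In both genes the libraries of the organs overlapped, which does not show equal levels: the 95% intervals of all 5 are drawn in the plot of control roots over control shoots. Over the 50 members, the Spearman correlation of the root log2 ratio with the log2 fold change of control roots over control shoots was 0.14 (a description across genes).

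Within heated plants, nearly all members were lower in roots than in shoots. Both root libraries were below all 3 shoot libraries in 45 of the 50 members in heated plants, against 27 in control plants, beside 43.9% in heated and 43.6% in control plants of the 10782 genes past both limits with values in all libraries. Both root libraries were above all 3 shoot libraries in 2 members in heated plants, MLOC_7324 and MLOC_2310, against 19 in control plants, beside 38.3% in heated and 36.3% in control plants of those genes. Root over shoot CPM had a median of 0.157 in heated plants and of 0.678 in control plants. CPM on the total reads of genes with recovered reads was chosen after seeing the data, and the most abundant shoot genes are missing from it. With it, the members below the shoots numbered 40 in heated and 19 in control plants, and those above 5 in heated and 23 in control plants. The shares of the genes past both limits were not computed with this CPM. These counts, and the 13 given below, therefore have no background beside them. The shift between the conditions follows from the choice, since the rule asked for a lowered root level and a held shoot level. The order turned in 14 members (13 with CPM on the total reads of genes with recovered reads). The 14 were above the shoots in control plants and below them in heated plants, beside 1.89% of the genes past both limits. This too follows from the choice. Among the 14 were MLOC_19025, MLOC_62491, MLOC_64368 and MLOC_4084. MLOC_19025 had 5.90 and 5.27 CPM in heated roots, against 9.49, 9.45 and 6.18 CPM in heated shoots. MLOC_64368 had 25.4 and 27.3 CPM in heated roots, against 93.8, 94.3 and 97.1 CPM in heated shoots, and 122 and 117 CPM in control roots, against 83.9, 84.8 and 84.8 CPM in control shoots. In MLOC_61170 the libraries of the organs overlapped after heat, with 18.8 and 20.2 CPM in heated roots, against 19.1, 20.8 and 17.5 CPM in heated shoots. MLOC_7324 kept a higher root level after heat, with 29.7 and 23.8 CPM in heated roots, against 8.71, 8.77 and 8.48 CPM in heated shoots.

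**Figure D4:**
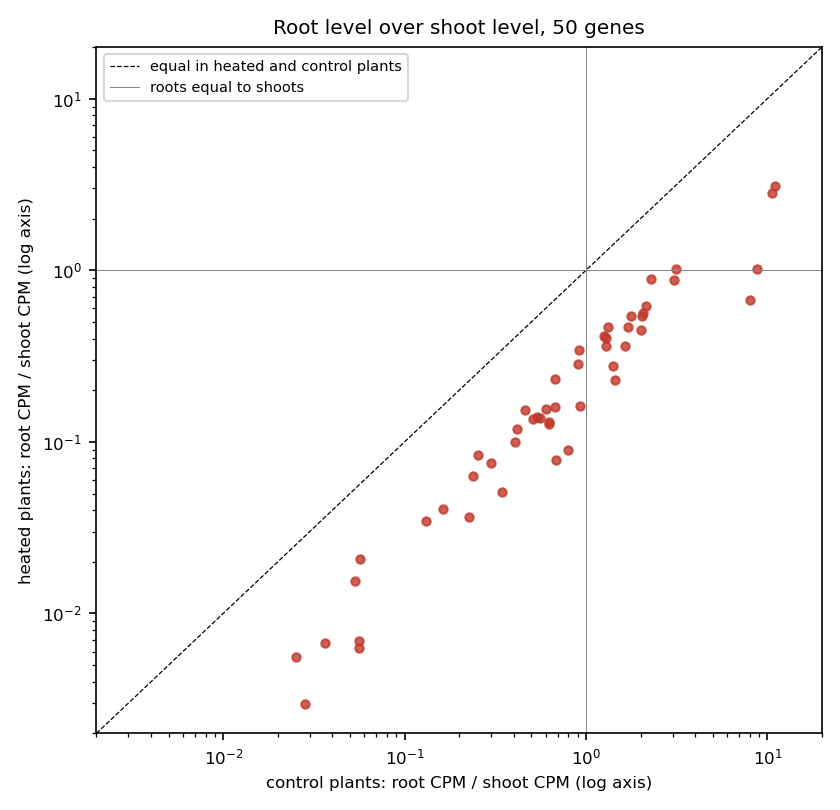
Root CPM divided by shoot CPM in heated plants (vertical) against control plants (horizontal) for 50 genes of the set, both on log axes, 1 point per gene from the group means, with the dashed line marking equal ratios. All points lie below the dashed line, and the median is 0.157 in heated plants and 0.678 in control plants.

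Together the 51 members took a small share of the reads. Of all normalized reads assigned to genes, they held 0.0574% in heated roots, against 0.306% in control roots. In shoots they held 0.422% in heated shoots, against 0.519% in control shoots. MLOC_11312 alone was 0.271% in heated shoots and 0.337% in control shoots. Without it the other 50 members held 0.152% in heated shoots, against 0.182% in control shoots. The summed means of the 51 members were 11082 in heated roots against 42407 in control roots, and 70981 in heated shoots against 74454 in control shoots. The totals over all genes were 19319700 in heated against 13846700 in control roots, and 16808200 in heated against 14359500 in control shoots. With larger totals after heat, the shares fell further than the summed means did.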

How the data were processed

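Per the labels and the study's methods, the authors aligned strand-specific reads by TopHat2 to the barley genome of Ensembl Plants, obtained read numbers of genes with HTSeq and ran DESeq within each tissue (tool versions: not given in the sources used here). These deposited values are the group means of counts divided by size factors (a signal per gene, with no depth stated), beside fold changes and p-values of the authors' own comparison, which were not used. Lines naming no gene held 60.6% and 60.4% of the normalized reads in heated and control roots, and 67.7% and 66.6% in heated and control shoots, and were left out.

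Because a group mean adds up integer reads over fixed weights, library reads could be recovered by enumeration: 100% of means above 0 in each root group, 99.6% in heated shoots and 99.7% in control shoots gave 1 solution. Of 1000 means per group moved by a small amount, 0, 0, 1 and 0 gave one. On simulated reads all 1946 to 1981 means per setting were split correctly. Recovered libraries carry no replicate letter, and libraries of a group differed by more than counting noise (median chi-square 2.54 to 4.77 times that of noise), so none was counted as a repeat. Size factors computed again from the reads differed by at most 0.121%.

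Ratios used a pseudocount of 1. Recovered reads were fitted with edgeR 4.0.16 in R 4.3.3 (quasi-likelihood, TMM, low-count filter, Benjamini-Hochberg at 0.05); DESeq2 1.42.0 was an alternative. On simulated counts for control roots against control shoots (18895 genes), 71% of 2-fold and 99% of 4-fold changes were found, with 17 unchanged genes called. Only a small set of genes was changed there, equally up and down, and all others had equal levels. In the data 38.5% of the genes tested were called higher and 35.1% lower in control roots. The simulation therefore does not check the scaling between the organs. Read numbers are not corrected for gene length, so levels of different genes are not comparable. Named genes were the 6 smallest root ratios, 6 highest control root means, 4 shoot ratios nearest 1, 4 highest and 4 lowest root over shoot levels, and 2 on each side of each limit. The members and lists were chosen with earlier results of these data known. The reference table matched 0 of 51 identifiers.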

Additional observations from a re-analysis of the deposited data

How the results depend on the processing

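The number of members moved with the limits: 19 at a root ratio of at most 0.25, 231 at 0.5, 27 with shoot ratios and their inverse of at least 0.9, 91 with 0.67 to 1.5, 31 with means of at least 100 and 334 with no limit on the means. It was 40 (37 shared) with a pseudocount of 10, 51 (51 shared) with TMM scaling, and 47 to 58 (37 to 49 shared) when each library was left out. Libraries were also scaled to their total reads in genes whose reads were recovered, which in shoots leaves out the most abundant genes. This scaling moved the median log2 ratio of all genes to -0.48 in roots and -0.13 in shoots. It gave 128 members (41 shared). The members' median root log2 ratio, -1.87 as reported, moved to -2.34, and the shoot median, -0.03 as reported, to -0.15. The root median was -1.71 with a pseudocount of 10 and -1.95 to -1.85 when each library was left out. With edgeR on the total reads of genes with recovered reads, 23 members were higher and 17 lower in control roots, against 19 and 26 as reported. With CPM on the total reads of genes with recovered reads, chosen after seeing the data, 5 were above the shoots in heated plants, with no share over other genes computed. Leaving out each library gave 13 to 17 members higher and 25 to 26 lower in control roots, DESeq2 gave 16 and 26, no filter on low counts 19 and 26, and 1 gene of each consecutive pair, added after seeing the data, 18 and 25. No paired analysis was possible because the recovered libraries carry no replicate letter. Only 2 root libraries per group limit the precision.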
